A study of Drosophila melanogaster with 2 samples.

Results

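The microRNAs of 4 hairpins were followed in whole larvae of Drosophila melanogaster: dme-mir-6-1 (MI0000124), dme-mir-6-2 (MI0000125), dme-mir-6-3 (MI0000126) and dme-mir-11 (MI0000131). They were chosen by hairpin accession and make up 4 of the 83 hairpins in the deposited table, each with 1 of its 101 listed products. Small RNA was sequenced from 1 library of wild-type larvae and 1 library of homozygous cdk9-G57S larvae, which carry a mutated Cdk9 gene. Both groups were 48 hours old and had been grown at 25 °C. Cdk9 is a kinase that, as part of P-TEFb, helps RNA polymerase II to elongate, and the series title places the comparison in the question of whether microRNA expression depends on recruiting the hairpin-cutting Microprocessor to the elongating polymerase. Each genotype has 1 library, so the differences below are unreplicated and come without p-values. The whole-larva RNA holds every tissue, so fewer cells that make a microRNA and less of it per cell cannot be told apart. The mutation itself cannot be seen in a table of microRNAs, so the genotype labels were not checked.

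As background, miR-6 and miR-11 carry the same seed, the stretch near the 5′ end by which a microRNA pairs with its targets. That seed pairs with the K box, a short motif found in the 3′ untranslated regions of Notch target genes in the fly. Both microRNAs are also known in the Drosophila embryo as repressors of the pro-apoptotic genes reaper, hid, grim and sickle. The mir-6 hairpins are known as part of a cluster that is switched on early in the embryo, while mir-11 lies inside the gene of a cell-cycle transcription factor.

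The genes differ in what surrounds them. In the BDGP6.54 annotation all 3 mir-6 hairpins lie on chromosome arm 2R within 1 non-coding transcript, lncRNA:CR44504, on its own strand. RefSeq lists this transcript under a name that strings together 8 hairpins (mir-6-3, mir-6-2, mir-6-1, mir-5, mir-4, mir-286, mir-3 and mir-309). The mir-11 hairpin lies on arm 3R inside E2f1, which encodes an E2F transcription factor, on the same strand. All 6 annotated E2f1 transcripts span the hairpin and 0 of them have an exon that overlaps it, so it is intronic. The hairpins are 82 nt (mir-6-1), 74 nt (mir-6-2), 80 nt (mir-6-3) and 75 nt (mir-11) long. The annotation gives each of them 2 mature products of 21 to 23 nt. The deposited table lists 1 product for each, with the suffix 1, and does not say which arm of the hairpin it is. Whether the listed products are those that carry the shared seed was therefore not checked. The submitters' processing notes name the build dm3, so no coordinates of this annotation are given.

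The libraries were of similar depth, with 2135660 reads over the listed products in wild type and 2204104 in the mutant. A product's share is its reads as a percentage of that total. Brackets around shares and ratios below are 95% intervals of counting error alone, exact Clopper-Pearson for shares. PCR duplicates among the reads would make the real error larger than these intervals.

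The mir-11 product was lower in the mutant library. The wild-type library held 48758 reads of it and the cdk9-G57S library 23289. Its share was 2.28% of the wild-type reads (2.26 to 2.30) and 1.06% of the cdk9-G57S reads (1.04 to 1.07), a 2.16-fold lower share (2.13 to 2.19). This passed the size rule that took the place of a test, a share at least 2-fold different with an interval that excludes a ratio of 1. In rank, with the mir-6 copies taken as 1 microRNA, mir-11 ranked 8 of 99 among wild-type products and 21 of 99 among mutant products.

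The mir-6 product differed less and in the other direction. The copy mir-6-1 had 28073 wild-type reads and 37341 mutant reads. The copy mir-6-2 had 28042 and 37278 reads. The copy mir-6-3 had 28414 and 37551 reads. Each copy held more reads in the mutant library, and within a library the copies were almost level. Counted as 1 microRNA, by the mean of the copies, mir-6 took 1.32% of the wild-type reads (1.30 to 1.33) and 1.70% of the cdk9-G57S reads (1.68 to 1.71). The share was 1.29-fold higher in cdk9-G57S (1.27 to 1.31), which lies within 2-fold. In rank mir-6 ranked 13 of 99 and 10 of 99 in these libraries.

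**Figure D1:**
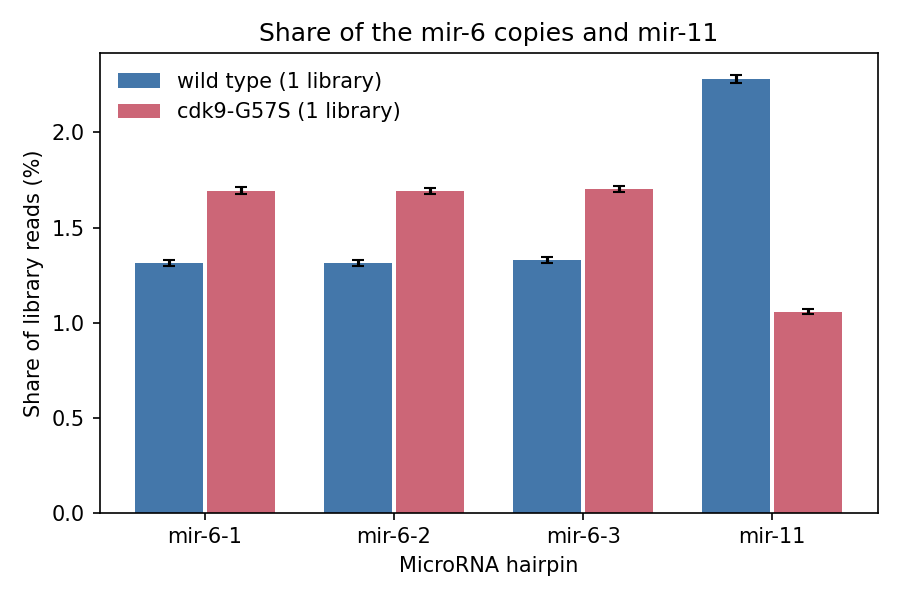
Share of library reads (%, y axis) of each mir-6 copy and of mir-11 (x axis) in the wild-type and the cdk9-G57S library; error bars are exact 95% counting intervals, with 1 library per bar. The mir-6 copies stand level at about 1.32% in wild type and 1.70% in the mutant, while mir-11 is at 2.28% and 1.06%.

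The copies could not be treated as independent measurements. In wild type the highest copy held 1.33% more reads than the lowest, and in cdk9-G57S 0.732% more. The copies mir-6-1 and mir-6-2 differed by 31 reads in the wild-type library and by 63 in the mutant library. The counting SD of 1 copy was 168 and 193 reads. The copy mir-6-3 lay above the next by 341 reads in the wild-type library and by 210 in the mutant library. It was thus the highest copy in both libraries, by a small margin. The log2 ratio of shares ran from 0.36 to 0.37 over the copies. Elsewhere in the list, products of different hairpins held identical counts, 2406 wild-type and 3424 mutant reads. Whether the same reads were listed for each mir-6 copy was not tested and cannot be told from the mir-6 counts. A sum over the copies would count such reads more than once. Summed, the copies made up 3.96% of the wild-type total and 5.09% of the cdk9-G57S total.

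The ratio of mir-11 to mir-6 within a library is free of any scaling between libraries. Wild type had 1.73 mir-11 reads per mir-6 read (1.71 to 1.76), with mir-6 counted once. The cdk9-G57S library had 0.623 (0.613 to 0.633). Thus mir-11 was the more abundant of the pair in wild type and mir-6 in cdk9-G57S, and the ratio was 2.78-fold lower in the mutant library (2.72 to 2.84, normal approximation from the 4 counts). With the copies summed the 2.78-fold difference must be the same, because the mean of the copies is their sum divided by 3. The order is not the same. On that basis there were 0.577 mir-11 reads per mir-6 read in wild type and 0.208 in the mutant library, so mir-6 led in both libraries.

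**Figure D2:**
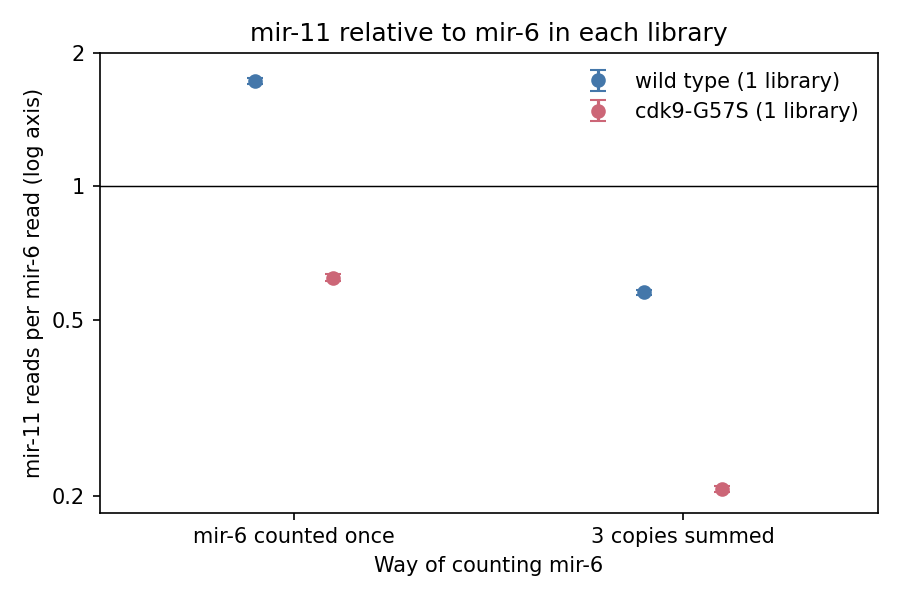
Reads of mir-11 per read of mir-6 (y axis, log scale) in each library, with mir-6 counted once or with its 3 copies summed (x axis). Points are single libraries and error bars are 95% counting intervals. For the summed copies the bars treat all reads as separate, and are too narrow if reads are listed for several copies. The step from wild type to cdk9-G57S is 2.78-fold in both cases by arithmetic, and it crosses 1 when mir-6 is counted once.

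The reads of both microRNAs together depended on the same choice. With mir-6 counted once they made up 3.60% of the wild-type reads (3.58 to 3.63) and 2.75% of the mutant reads (2.73 to 2.77), a ratio of 0.764. With the copies summed they made up 6.24% and 6.15%, a ratio of 0.985. Only with the copies summed did the lower mir-11 reads and the higher mir-6 reads nearly offset each other. The near balance thus depended on the way of counting. Which way is right hangs on how reads were assigned to the copies, which was not tested.

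Against all 101 listed products, mir-11 lay towards the low end and mir-6 near the middle. The size rule called 17 products lower, 16.8% of the list, and mir-11 was 1 of them. It called 28 products higher, 27.7% of the list, and none of the mir-6 copies was among them. The log2 ratio of mir-11 was -1.11 and ranked 16 from the lowest. That of mir-6 was 0.36, beside a median over all products of 0.24 and quartiles of -0.74 and 1.22. Of the 97 other products, 39 had a log2 ratio between those of mir-11 and mir-6.

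**Figure D3:**
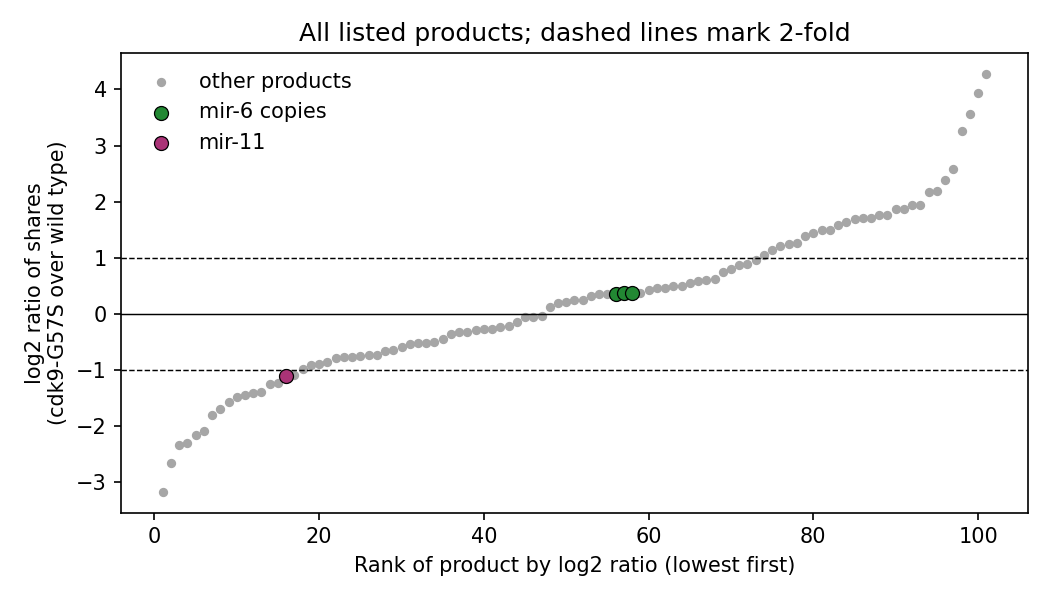
Log2 of the mutant share over the wild-type share (y axis) of all 101 listed products in order of that ratio (x axis, rank); dashed lines mark 2-fold, and each point compares 1 library with 1 library. The mir-11 point is at -1.11, just past the lower line, and the mir-6 copies lie together at 0.36 to 0.37.

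The products most like each microRNA were taken as those of other hairpins with the nearest log2 ratio over the 2 libraries. Nearest to mir-11 was MI0000128_2, the most abundant product of both libraries, with a 2.14-fold lower share in cdk9-G57S and a log2 ratio 0.013 away. The next nearest to mir-11 was MI0000127_1, at 27307 and 14140 reads, a 1.99-fold lower share that lay just within 2-fold. Nearest to mir-6 were MI0000380_1, with 2215 and 2924 reads and a 1.28-fold higher share, and MI0005827_2, with 3484 and 4661 reads and a 1.30-fold higher share. Both are far rarer than mir-6. With 2 libraries many products must lie close to any given ratio, so likeness here is a description.

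A second set of 7 hairpins was taken for comparison as candidates for other carriers of the seed, but no table at hand pairs their accessions with names or sequences, so the shared seed was not checked. They had 10 listed products, of which 5 passed the 2-fold limit upwards in the mutant library, 1 passed it downwards and 4 lay within 2-fold, beside 27.7% higher and 16.8% lower over all products. On the deposited scale the counts were 5 higher, 4 lower and 1 within, beside 23.8% higher and 23.8% lower over all products. Without the most abundant product in the totals they were 4, 4 and 2, beside 22.8% higher and 28.7% lower over all products. The 10 products are not separate measurements either, since 3 pairs from different hairpins held reads within 10% of each other in both libraries. With 1 product kept of each pair and scaling by totals, 3 of 7 were higher, 1 was lower and 3 were within the limit. These other settings for the list were chosen after the data were seen. The ratios of shares of the 10 products ran from 0.425 to 4.55, with a median log2 ratio of 0.53 beside 0.24 over all products. The value of mir-11 lay between the lowest and the second lowest of these 10 products, and mir-6 lay inside their range.

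Scaling changed the size of the mir-6 difference, from higher to level, but not the call for mir-11. On the authors' deposited scale, mir-11 had a normalised signal of 53775 in the wild-type library and 21114 in the mutant library, a 2.55-fold lower value. On the same scale mir-6-1 had 30962 and 33853, mir-6-2 had 30927 and 33796, and mir-6-3 had 31338 and 34044. The mean of the copies was 1.09-fold higher there, and its log2 ratio of 0.13 is also its distance above the median product, since that scale sets the median to 0. When the totals excluded the most abundant product, mir-6 was level, at a log2 ratio of -0.0027. Over the 6 scalings tried, mir-11 was between 2.14-fold and 2.78-fold lower, and it stayed past the 2-fold limit in each. These are not 6 separate checks, since DESeq2's size factors and the deposited values gave the same 2.55-fold lower value.

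**Figure D4:**
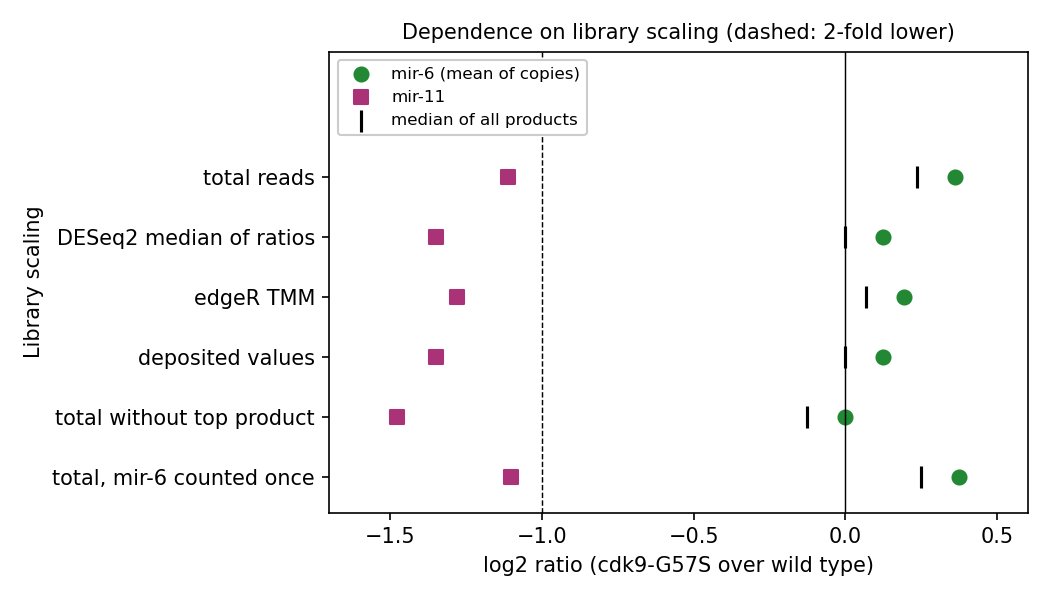
Log2 ratio, cdk9-G57S over wild type (x axis), of mir-6 (circles), mir-11 (squares) and the median of all listed products (ticks) under 6 library scalings (y axis); the dashed line marks 2-fold lower. The distance between mir-11 and mir-6 is 1.47 throughout, mir-11 stays left of the dashed line, and mir-6 runs from -0.0027 to 0.37.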

How the data were processed

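Total RNA was extracted with Trizol and sequenced by Illumina, per the labels' protocols. The submitters' processing notes list Bowtie and the build dm3. How reads were trimmed, filtered by length and assigned when they match more than 1 hairpin is not given in the sources used here. That assignment bears on the mir-6 copies. The authors deposited raw read counts per product and a normalized signal, made with DESeq2 per the file headers. That signal is each count divided by 1 factor per library (0.907 and 1.10). Footer lines (totals and their difference) were left out; the totals equal the sums over the 101 products.

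The raw counts were used. Shares have Clopper-Pearson intervals and ratios of shares have exact conditional-binomial intervals; for mir-6 these use the rounded mean of the copies. On Poisson counts simulated for the 101 products, the size rule called 100% of 4-fold changes and 0% of unchanged products, with no variation between samples simulated. No change near the 2-fold limit was simulated, so this does not bear on calls close to it, such as that of mir-11. Every product had at least 1023 reads over both libraries, so counting error alone left little room for another outcome. The simulated counts were scaled by the observed totals, so the effect of an abundant product on other shares was not simulated. The named products are the members, the 2 products nearest in log2 ratio to each microRNA, and a comparison list of 7 hairpins. The members and lists were chosen with earlier results of these data known. The 4 hairpins carry the names given with their accessions; the gene tables held 0 of the 4 accessions, and genes were looked up by symbol. Alternatives were other scalings, ways of counting the copies, a pseudocount and other limits. Python 3.11.15, scipy 1.17.1, R 4.3.3, edgeR 4.0.16 (TMM factors) and DESeq2 1.42.0 (size factors) were used.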

Additional observations from a re-analysis of the deposited data

How the results depend on the processing

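Scaling shifts all log2 ratios alike. The log2 ratio of mir-6 was 0.36 with totals, 0.13 with DESeq2's size factors or the deposited values, 0.19 with TMM factors and -0.0027 without the most abundant product. That of mir-11 was -1.11 with totals, -1.35 with DESeq2's size factors or the deposited values, -1.28 with TMM factors and -1.48 without the most abundant product. Counting the mir-6 copies once in the totals, taking any 1 copy, or adding 5 reads to each count moved no member beyond its counting interval. Summing the copies in place of their mean leaves the ratio unchanged by arithmetic. Of all products, 28 were higher and 17 lower by the 2-fold rule with totals, 24 and 24 on the deposited scale, and 23 and 29 without the most abundant product. A 4-fold limit left 14 products in all, which follows from the limit itself and no longer includes mir-11. No member had 2 listed products, so the planned differences within hairpins and sums over products could not be computed. No paired analysis was possible because there was a single library of each genotype. Counting intervals leave out variation between samples and reads listed for several copies.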
